A study of Mus musculus with 6 samples.

Results

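Twist1, Twist2, Snai1, Snai2, Zeb1 and Zeb2 encode the DNA-binding factors best known as switches of mesenchymal identity, and their transcripts were followed in mouse dermal fibroblasts during the first hours of interleukin-1 (IL-1) exposure. The 6 genes were chosen by name, with the older array names Zfhx1a for Zeb1 and Zfhx1b for Zeb2. No value entered that rule, but earlier results of these data were known when the genes were chosen. They were represented by 8 of the 41174 probes, which is 6 of 29183 genes, and all 8 probes were among the 30583 probes, for 22211 genes, that could be tested.

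The fibroblasts came from C57BL/6 mice, were grown in serum-containing medium and received IL-1 at 20 ng/ml for 1, 2 or 4 h. The untreated cells were of the same strain and stood at 0 h. Each of 6 two-colour Agilent arrays carried RNA of treated cells in one dye and RNA of untreated cells in the other, and each time point had 2 arrays with the dyes exchanged, which counted as 1 sample. Whether IL-1 was the alpha or the beta form, the animals' age, and whether the untreated RNA was a single extract are not given in the sources used here.

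Twist1 and Twist2 are basic helix-loop-helix (bHLH) factors that pair with E proteins and are needed in mesenchyme of the head and dermis. Snai1 and Snai2 are zinc-finger repressors, and Zeb1 and Zeb2 are larger proteins with zinc fingers at both ends; both families bind E-boxes in the promoters of epithelial genes such as that for E-cadherin. In epithelial cells these factors drive the transition to a mesenchymal state, whereas fibroblasts carry many of them as part of their resting programme. Cytokines that activate NF-kB, among them IL-1, are known to alter the abundance of several of them.

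The response of the cells and their identity were checked first. With each ratio signed by the labelled dyes, log2 ratios of IL-1 over untreated were 6.21, 5.49 and 4.84 at 1, 2 and 4 h for the chemokine gene Cxcl1, and 3.02, 2.65 and 1.87 for Nfkbia, which encodes an NF-kB inhibitor. Of 9 fibroblast markers 8 lay above 2 times the median of the negative control spots on all 6 arrays, in the channels of treated and of untreated RNA alike. Of the other cell types' markers, 4 of 5 leukocyte, 2 of 4 endothelial and 3 of 4 melanocyte genes were measured, and 0 of these did so. Of 4 measured keratinocyte markers 1 did in treated RNA, against 2 in untreated RNA (Krt5 and Krt10), and Krt10 fell by 0.20 on the log2 scale in the mean over the 3 times (limma, adjusted p = 0.00525). Among fibroblast markers Dcn, which encodes the matrix proteoglycan decorin, rose by 0.46 (limma, adjusted p = 0.0388; 0.0585 with median centring and 0.12 with the scanner's processed signals) and the collagen gene Col3a1 fell by 0.25 (limma, adjusted p = 0.00377). The leukocyte marker Csf1r rose by 0.13 (limma, adjusted p = 0.0293), a call lost with median centring and with the scanner's processed signals, and 0 endothelial and 0 melanocyte markers passed the limma test, with 1 and 0 at an unadjusted p under 0.05. In RNA of a whole culture, fewer cells of a type and less RNA per cell cannot be told apart, and the part of keratinocyte RNA in the results below was not tested.

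Promoters of 3 members are shown, those of the Twist genes because the pair moved in opposite directions and that of Snai1 because it carries the E-box that Snail and Zeb proteins bind. Each is the 250 bases before the annotated start, 5′ to 3′ on the gene's strand, from RefSeq on GRCm38.p6, and capitals mark the matches described below.
Twist2, chr1:91801211-91801460, plus strand: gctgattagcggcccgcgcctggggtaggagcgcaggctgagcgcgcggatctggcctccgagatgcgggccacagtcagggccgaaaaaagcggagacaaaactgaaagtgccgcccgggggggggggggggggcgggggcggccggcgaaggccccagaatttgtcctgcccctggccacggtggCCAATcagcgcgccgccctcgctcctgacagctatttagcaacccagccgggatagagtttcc
Twist1, chr12:33957421-33957670, plus strand: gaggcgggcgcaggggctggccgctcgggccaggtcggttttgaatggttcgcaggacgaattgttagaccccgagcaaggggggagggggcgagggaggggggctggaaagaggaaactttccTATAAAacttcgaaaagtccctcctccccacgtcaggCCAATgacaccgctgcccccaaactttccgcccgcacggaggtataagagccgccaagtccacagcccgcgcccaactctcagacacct
Snai1, chr2:167537945-167538194, plus strand: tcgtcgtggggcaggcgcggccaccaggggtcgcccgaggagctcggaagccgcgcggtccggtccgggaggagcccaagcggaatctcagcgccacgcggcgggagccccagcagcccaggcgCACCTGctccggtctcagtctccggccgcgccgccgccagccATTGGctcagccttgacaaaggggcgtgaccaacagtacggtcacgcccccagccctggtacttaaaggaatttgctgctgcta
The Twist2 window held CCAAT, the Twist1 window held TATAAA and CCAAT, and the Snai1 window held CACCTG and ATTGG, which are CAGGTG and CCAAT read on the other strand. CAGGTG is the E-box bound by Snail and Zeb proteins, and in the Snai1 window it lay at bases -126 to -121 from the start and was also the window's single match to CANNTG. Among 32851 promoter windows of the same length, CAGGTG occurred in 17.2%, CANNTG in 66.2%, CCAAT in 33.8% and TATAAA in 12.4% on either strand. Neither the kB consensus, present in 7.25% of all windows, nor TGANTCA, the AP-1 site present in 6.75%, occurred in these letters of the 3 windows. This does not extend to all members, and windows of Snai2 and Zeb1 are not described here. Among the Zeb2 windows, which are not shown, the window starting at chr2:45110278 held 2 AP-1 sites. These were TGAGTCA at bases -189 to -183 and TGACTCA at bases -132 to -126. Such matches are descriptions of the sequence and do not show that a factor binds.

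Twist2 was the member that stood highest over untreated cells. Its probe, for NM_007855, lies at positions 91675439 to 91675497 on the plus strand of chromosome 1, in coordinates whose build the files do not name. With the IL-1 RNA in Cy5 the log2 ratios of IL-1 over untreated were 1.19, 1.52 and 1.44 at 1, 2 and 4 h, and with the IL-1 RNA in Cy3 they were 0.93, 1.22 and 1.28. These normalized ratios were above 0 on all 6 arrays. Before normalization the treated signal was above the untreated one on the 3 arrays with IL-1 RNA in Cy5 (3493 against 759 at 1 h) and below it on the 3 with IL-1 RNA in Cy3 (1604 against 2296 at 1 h). The brightest probe of every other member showed the same split by dye before normalization, so the signs given below are those after it. Averaged over the dyes, Twist2 stood 2.09-fold, 2.58-fold and 2.56-fold over untreated cells. Counted from the highest of 22211 genes, its rank was 50 at 1 h, 26 at 2 h and 17 at 4 h.

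The mean response of Twist2 over the 3 time points was a log2 ratio of 1.26 ± 0.063 (SE, n = 3 time points), a rise of 2.40-fold (limma, adjusted p = 0.000887). Its slope was 0.15 per doubling of time (limma, adjusted p = 0.331), so no change between the time points passed the test. Ratios against untreated leave out the spread of the untreated RNA itself, and nothing states that the time points were separate cultures, so all p-values here measure only the spread between these samples. Under all 15 other processing choices tried, Twist2 kept its call, with mean log2 ratios between 1.11 and 1.38. Among these choices, the scanner's processed signals and the authors' value table hold the same ratios and gave the same results. Counts over the choices here and below include both, although they are not separate checks.

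Twist1, the other Twist gene, went the opposite way. Its probe, for NM_011658, lies at positions 30572206 to 30572265 on the plus strand of chromosome 12. The log2 ratios were -0.14, -0.42 and -0.57 at 1, 2 and 4 h with the IL-1 RNA in Cy5, and -0.08, -0.24 and -0.53 with it in Cy3. After normalization every array thus read below 0, with the lowest values at 4 h in both dye orientations. Before it, the treated signal was the higher one with IL-1 RNA in Cy5 (829 against 488 at 1 h). The averages of -0.11, -0.33 and -0.55 correspond to 0.928, 0.796 and 0.684 times the untreated level.

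Over the 3 times Twist1 fell by 0.33 ± 0.078 on the log2 scale (SE, n = 3 time points; limma, adjusted p = 0.0337). Its slope was also past the threshold, at -0.22 ± 0.027 per doubling of time (limma, adjusted p = 0.0441). Counted from the lowest of all genes, its rank was 2542 at 1 h, 173 at 2 h and 31 at 4 h. Neither call was robust: the mean response missed the threshold under 6 of 15 other processing choices, with adjusted p up to 0.147, and the slope under 5 of 12, with adjusted p up to 0.514. The direction stayed downward in each of them.

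The distance between the 2 Twist genes was measured within each array, where both share the RNA, the dyes and the slide. The log2 ratio of Twist2 minus that of Twist1 was positive on 6 of 6 arrays, from 1.01 to 2.01, and averaged 1.17 at 1 h, 1.70 at 2 h and 1.91 at 4 h. The gap was thus present at the earliest time and wider at the later ones in both dye orientations.

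**Figure D1:**
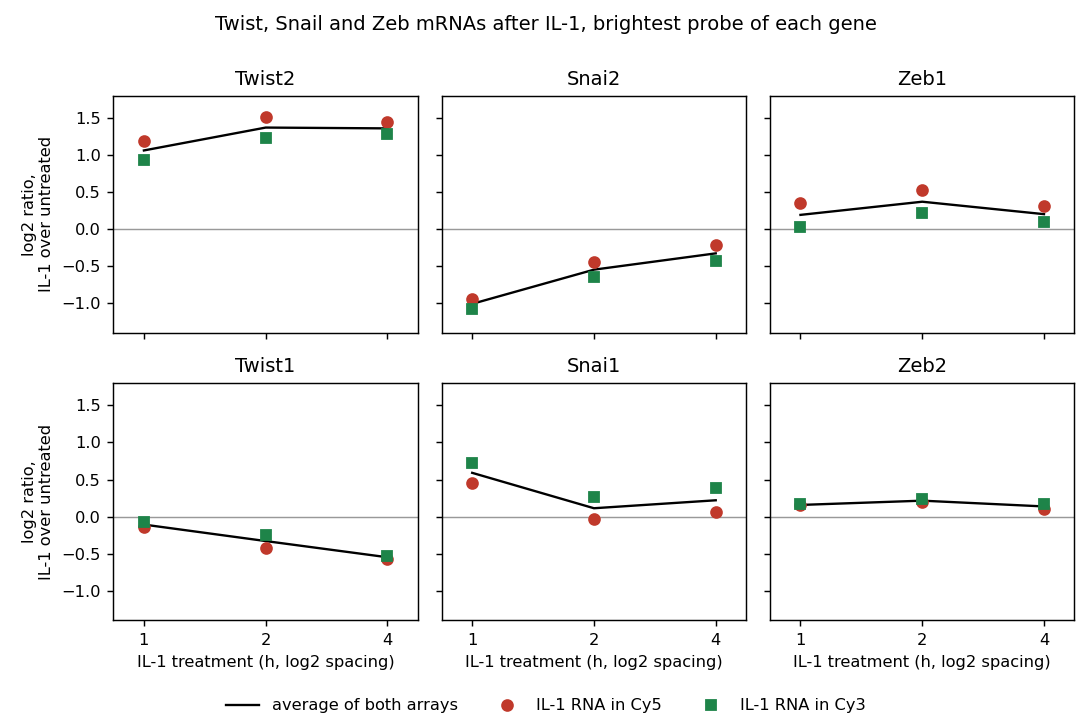
Log2 ratio of IL-1 over untreated (vertical axis) against hours of IL-1 (horizontal axis, log2 spacing), with 1 panel for each of the 6 genes. Circles have the IL-1 RNA in Cy5, squares have it in Cy3, and the line joins their averages. Twist2 lies above 0.9 on every array after loess, Twist1 reaches -0.55 at 4 h, and Snai2 starts at -1.01 at 1 h and ends at -0.33.

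Snai2, formerly Slug, encodes a repressor found in neural crest and connective tissue cells, and was the member with the lowest ratios at 1 h, at 2 h and in the mean over the 3 times, Twist1 being lower at 4 h. Its probe, for NM_011415, lies at positions 13419851 to 13419910 on the plus strand of chromosome 16. The log2 ratios at 1, 2 and 4 h were -0.94, -0.45 and -0.22 with the IL-1 RNA in Cy5, and -1.08, -0.65 and -0.43 with it in Cy3. After normalization all 6 arrays lay below 0, and the shortfall was deepest at 1 h and shallowest at 4 h in each orientation. Before it, the treated signal was the higher one with IL-1 RNA in Cy5 (2378 against 2150 at 1 h). On average Snai2 stood at 0.497, 0.684 and 0.797 times the untreated level.

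Counted from the lowest of 22211 genes, Snai2 had rank 3 at 1 h, 29 at 2 h and 206 at 4 h. The mean response fell by 0.63 ± 0.12 (SE, n = 3 time points; limma, adjusted p = 0.0182), and the slope was 0.34 ± 0.039 per doubling of time (limma, adjusted p = 0.0373), meaning that the ratio climbed back toward 0. Between 1 h and 4 h it gained 0.72 with IL-1 RNA in Cy5 and 0.65 with it in Cy3. Snai2 was the only member to differ by at least 1.5-fold between any 2 times in both orientations, a size that 0.0855% of all genes reached upward and 0.198% downward between 1 h and 4 h. No member reached it between 1 h and 2 h, where 0.0225% of all genes did so upward and 0.0855% downward, or between 2 h and 4 h, where 0.0045% and 0.09% did. The mean response missed the threshold under 4 of 15 other choices, with adjusted p up to 0.166, and the slope under 5 of 12, with adjusted p up to 0.514, while both directions held.

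Snai1, which encodes the short-lived Snail protein, read higher at 1 h than later. Its probe, for NM_011427, lies at positions 166999307 to 166999366 on the plus strand of chromosome 2. The log2 ratios at 1, 2 and 4 h were 0.45, -0.03 and 0.06 with the IL-1 RNA in Cy5, and 0.73, 0.26 and 0.38 with it in Cy3. The 1 h arrays were both above 0, but at 2 h the orientations lay on either side of it. The averages were 1.51-fold, 1.08-fold and 1.16-fold over untreated cells.

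The mean log2 ratio of Snai1 was 0.31 ± 0.087 (SE, n = 3 time points) and did not pass the test (limma, adjusted p = 0.0577). It passed under 5 of 15 other choices. Among these was the fit of the 6 arrays unaveraged, with dye orientation as a replicate block (limma, adjusted p = 0.0141). That fit counts dye-swapped arrays of the same time point as separate samples, which they are not. The slope of -0.19 per doubling of time did not pass either (limma, adjusted p = 0.452). Within arrays, the log2 ratio of Snai1 minus that of Snai2 was positive on 6 of 6, from 0.28 to 1.81, and averaged 1.60 at 1 h, 0.66 at 2 h and 0.55 at 4 h. The gap between the 2 Snail genes was thus widest at the earliest time, whereas that between the 2 Twist genes was widest at the latest.

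Zeb1 and Zeb2 had the smallest mean responses of the 6 genes with the settings used here. Zeb1, on chromosome 18 and represented by a probe for NM_011546, had log2 ratios of 0.35, 0.52 and 0.31 at 1, 2 and 4 h with the IL-1 RNA in Cy5, and of 0.03, 0.22 and 0.10 with it in Cy3. All were above 0, and each Cy5 value exceeded its Cy3 partner. The mean response rose by 0.25 ± 0.040 on the log2 scale (SE, n = 3 time points; limma, adjusted p = 0.0106), or 1.19-fold, and the slope was 0.0049 (limma, adjusted p = 0.985). The mean call was lost with the scanner's processed signals (limma, adjusted p = 0.0661), and so with the authors' value table, which holds the same ratios. It was also lost without replicate 1 (limma, adjusted p = 0.088).

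Zeb2 had 3 probes, and they did not give one answer. The brightest, for NM_015753 at positions 44919417 to 44919476 on the minus strand of chromosome 2, had log2 ratios of 0.15, 0.19 and 0.10 with the IL-1 RNA in Cy5 and of 0.16, 0.24 and 0.17 with it in Cy3. The second, at positions 44920711 to 44920770, had -0.02, -0.05 and -0.08 with the IL-1 RNA in Cy5 and -0.18, 0.08 and -0.07 with it in Cy3. The third, for the clone AK031541 at positions 44953155 to 44953214, had -0.38, -0.24 and -0.31 with the IL-1 RNA in Cy5 and 0.28, 0.39 and 0.52 with it in Cy3. The first probe was above 0 on all 6 arrays, the second on 1 of 6, and the sign of the third followed the dye.

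By the brightest probe, which stands for the gene in the counts, Zeb2 rose by 0.17 ± 0.025 on the log2 scale (SE, n = 3 time points; limma, adjusted p = 0.00913). In the fit of all 30583 probes, of which 10.5% were called higher and 11.4% lower, the second probe averaged -0.055 ± 0.029 (limma, adjusted p = 0.248) and the third 0.043 (limma, adjusted p = 0.438). The third was dim, with treated signals of 91.6 to 109 in Cy5 and 122 to 128 in Cy3, where the negative controls had medians of 68.4 to 74.1 and 96.3 to 104. With the mean of the 3 probes the Zeb2 response was 0.053 (limma, adjusted p = 0.215), so its call rests on 1 probe. Zeb1 exceeded the brightest Zeb2 probe on 3 of 6 arrays, with differences in log2 ratio from -0.14 to 0.33. These 3 were the arrays with IL-1 RNA in Cy5, so the sign of this difference followed the dye.

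**Figure D2:**
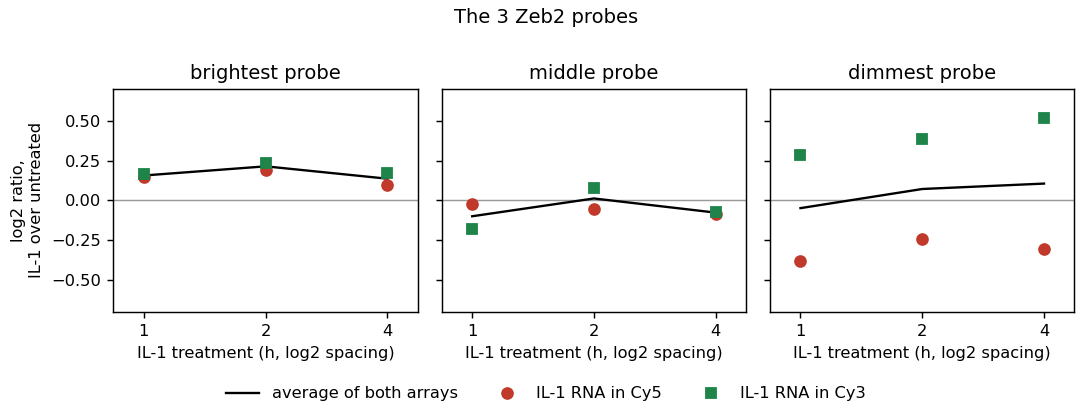
Log2 ratio of IL-1 over untreated (vertical axis) for the 3 Zeb2 probes, against hours of IL-1 (horizontal axis, log2 spacing). Circles have the IL-1 RNA in Cy5, squares have it in Cy3, and the line joins their averages. The brightest probe lies above 0 on all 6 arrays, and the dimmest lies below 0 with IL-1 RNA in Cy5 and above 0 with it in Cy3.

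Counted over the family, 3 of 6 members rose in the mean response (Twist2, Zeb1 and Zeb2) and 2 fell (Twist1 and Snai2), beside 10.5% of all genes higher and 10.8% lower. With median centring in place of loess 2 members rose (Twist2 and Zeb1) and the same 2 fell, while the calls over all genes went to 1126 higher and 5754 lower, that is 16.4% higher in place of 49.4%. With the scanner's processed signals 1 member, Twist2, rose and 0 fell, beside 748 genes higher and 587 lower. With trend and robust variances 3 members rose and 0 fell, beside 2555 genes higher and 2673 lower. All 8 probes carried the scanner's mark for a signal well above background in both channels on all 6 arrays, a mark that up to 14.3% of negative control spots also carried on a single array, and none was saturated. For the slope, Snai2 was the 1 member rising and Twist1 the 1 falling, beside 0.162% and 0.212% of all genes. The median member had a mean log2 ratio of 0.21, against 0.0037 for all genes.

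By size, Twist2 was at least 1.5-fold higher in both dye orientations at 1, 2 and 4 h, which 0.41%, 0.428% and 0.369% of all genes were. It was at least 2-fold higher at 2 h and at 4 h, beside 0.18% and 0.135% of all genes. Snai2 was at least 1.5-fold lower at 1 h, beside 0.0315% of all genes, and 0 members were so at 2 h or 4 h, beside 0.063% and 0.0585%. At 1 h 0 members reached 2-fold in either direction, beside 0.212% of all genes higher and 0.009% lower, and at 2 h and 4 h 0% of all genes were 2-fold lower. These size calls rest on the loess step: with median centring in its place 0 members passed either size at any time, the averages of Twist2 being 0.90, 1.19 and 1.23 and that of Snai2 at 1 h being -1.16. The other 4 members passed neither size at any time, although Snai1 averaged 1.51-fold at 1 h, since only its Cy3 value reached 0.585.

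The nearest genes to Twist2 over the 3 time-point averages, by root mean square difference among 22210 others, were Micall2 at 0.065, Cebpb at 0.18, Nfkb2 at 0.21, Cx3cl1 at 0.23 and Vcam1 at 0.25. Cebpb encodes a leucine zipper factor of inflammation, Nfkb2 an NF-kB subunit, Cx3cl1 a chemokine and Vcam1 an adhesion receptor for leukocytes. Micall2, which encodes a partner of Rab13 in junction traffic, had averages of 0.97, 1.39 and 1.29, beside 1.06, 1.37 and 1.36 for Twist2.

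For Snai2 the nearest were Ephb3 at 0.20, Rgs2 at 0.22, Ppp1r3d at 0.22, Id4 at 0.24 and Prickle1 at 0.25. Rgs2, a brake on G-protein signalling, had averages of -0.76, -0.38 and -0.10. Ephb3, an ephrin receptor, had -0.75, -0.73 and -0.47. These distances rest on 3 points that all use the same untreated condition.

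The bHLH partners and Id inhibitors decide with whom Twist proteins can dimerise. Of 7 such genes, all measured, 1 rose and 3 fell, with a median of -0.12. Id4, an inhibitor that sequesters E proteins, had averages of -1.09, -0.94 and -0.25 and fell by 0.76 overall (limma, adjusted p = 0.021). Tcf12 and Tcf3, which encode the E proteins HEB and E2A, fell by 0.16 and 0.12 (limma, adjusted p = 0.00962 and 0.023), and Id3 rose by 0.26 (limma, adjusted p = 0.0298). The dye orientations of Tcf12 lay 0.20, 0.17 and 0.19 from averages of -0.16, -0.18 and -0.12 at 1, 2 and 4 h. At 1 h and 4 h they were thus on either side of 0, a spread that the test of the averages leaves out. With median centring in place of loess none rose and 5 fell, and with the scanner's processed signals 0 passed the limma test in either direction, the 4 named calls having adjusted p from 0.0643 to 0.108.

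Of 12 listed relatives of Twist and Snail, among them the tendon factor gene Scx and Snai3, 7 were measured and 0 passed the limma test in either direction, with 1 at an unadjusted p under 0.05. Their median was -0.025, and with median centring 1 fell.

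Of 30 listed epithelial genes that Snail and Zeb proteins repress in epithelial cells, 23 were measured and 0 passed the limma test in either direction, with 3 at an unadjusted p under 0.05. Mean log2 ratios lay between -0.13 for the keratin gene Krt18 and 0.072 for the factor gene Ovol1, with a median of 0.015, and with median centring 3 fell. Cdh1, which encodes E-cadherin, was not among the 23. Signals of this list were not compared with the negative controls, so the lack of calls does not show that the genes were expressed and unchanged.

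Mesenchymal genes moved both ways, with 8 of 24 higher, 4 lower and a median of 0.072. Among the 8 higher, S100a4 was saturated on all 6 arrays, as were Acta2, Tagln and Vim, which were not called. Itga5, an integrin subunit that binds fibronectin, rose by 0.41 (limma, adjusted p = 0.00221), and Fn1, which encodes fibronectin itself, rose by 0.35 (limma, adjusted p = 0.00195). The dye orientations of Itga5 lay 0.34, 0.30 and 0.34 from averages of 0.38, 0.50 and 0.35. Both were thus above 0 at each time, but 1 of them was near 0 at 1 h and 4 h. The receptor kinase gene Axl rose by 0.32 (limma, adjusted p = 0.00153). Cdh2, which encodes N-cadherin, fell by 0.27 (limma, adjusted p = 0.0029). Under median centring the split of the list was 6 higher and 13 lower, with these 4 directions as stated, and with the scanner's processed signals it was 6 higher and 1 lower.

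Of 29 other transcription factors of mesenchyme, 6 rose and 10 fell, and the median was -0.025. Osr1 fell by 0.40, Sox9 by 0.36, Foxc1 by 0.28 and Runx2 by 0.24 (limma, adjusted p = 0.00699, 0.0419, 0.00586 and 0.0186). Sox9, the cartilage factor gene, had averages of -0.11, -0.34 and -0.63 and a falling slope of -0.26 (limma, adjusted p = 0.0326). Those values lie beside -0.11, -0.33 and -0.55 for Twist1. Median centring gave 3 higher and 12 lower, and the scanner's processed signals 1 and 1, with the 4 named calls lost (limma, adjusted p from 0.0507 to 0.137).

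Of corepressors that these factors recruit, 16 of 17 were measured, and 4 rose and 4 fell, with a median of 0.016. Hdac2, a histone deacetylase, fell by 0.27 (limma, adjusted p = 0.00256), and Suz12, a Polycomb subunit, fell by 0.13 (limma, adjusted p = 0.0182). The arginine methyltransferase gene Prmt5 and the CoREST gene Rcor1 rose by 0.16 and 0.15 (limma, adjusted p = 0.00705 and 0.0155). For Rcor1 the dye orientations lay on either side of 0 at 1 h and 4 h, both times 0.17 from averages of 0.11 and 0.13. With median centring 0 of 16 rose by the limma test and 10 fell, and with the scanner's processed signals 0 rose and 1, Hdac2, fell (limma, adjusted p = 0.044), so all other calls of this list depend on the scaling.

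Regulators of the stability of Snail and Twist proteins gave 4 higher and 2 lower of 17 measured of 18, with a median of 0.024. Pak1, a kinase that phosphorylates Snail, rose by 0.21 (limma, adjusted p = 0.00424), and Mdm2, a ubiquitin ligase, rose by 0.20 (limma, adjusted p = 0.0456). Fbxo11 and Fbxl14, ligase subunits that target Snail, fell by 0.19 and 0.13 (limma, adjusted p = 0.00635 and 0.0224). For both, the dye orientations lay on either side of 0 at 1 h and 4 h. Averages there were -0.15 and -0.21 for Fbxo11, with orientations 0.15 and 0.26 away, and -0.096 and -0.11 for Fbxl14, with orientations 0.11 and 0.15 away. Orientations of Mdm2 did so at 2 h, lying 0.050 from an average of 0.037. The test of the averages leaves this spread out. Median centring left 1 higher and 6 lower, and the scanner's processed signals 1 higher, which was Pak1 (limma, adjusted p = 0.0455), and 0 lower.

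Among upstream signals and mediators, 9 of 21 measured of 23 rose and 6 fell, with a median of 0.0064. The NF-kB subunit genes Nfkb1 and Rela rose by 0.99 and 0.57 (limma, adjusted p = 0.00159 and 0.00306), and Smad3, a mediator of TGF-beta, rose by 0.41 (limma, adjusted p = 0.00737). Tgfb3 fell by 0.38 (limma, adjusted p = 0.0382), with averages of -0.12, -0.36 and -0.65, and the Notch ligand gene Jag1 fell by 0.41 (limma, adjusted p = 0.0125). With median centring 5 rose and 11 fell, and these 5 genes kept the directions given. With the scanner's processed signals 5 rose and 1 fell, and the calls of Smad3, Tgfb3 and Jag1 were lost (limma, adjusted p = 0.0535, 0.123 and 0.0711).

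**Figure D3:**
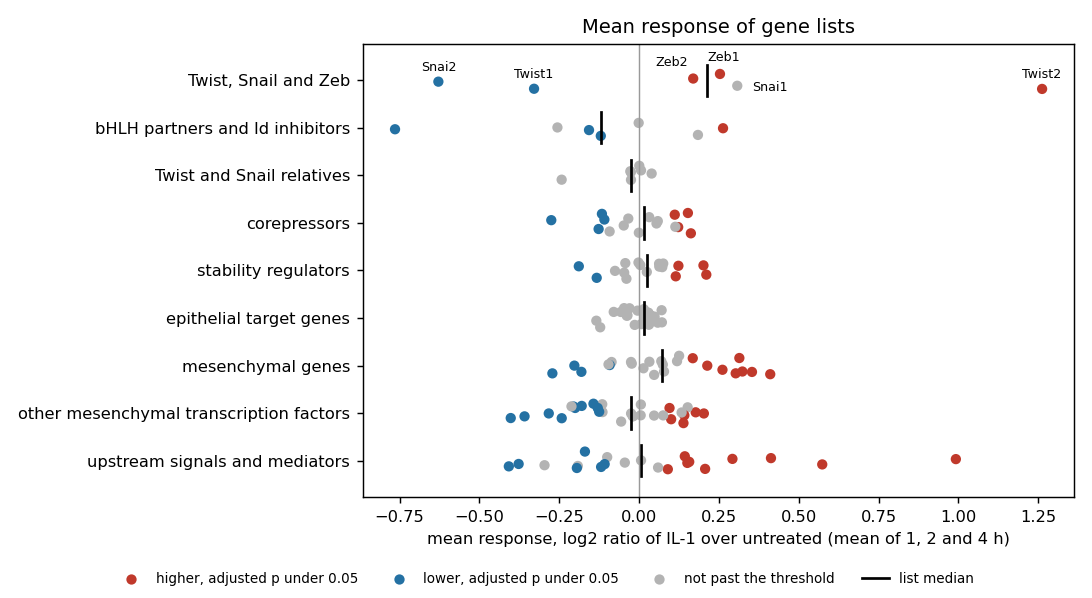
Mean response over 1, 2 and 4 h (horizontal axis, log2 ratio of IL-1 over untreated) of every measured gene, with 1 row per gene list. Red points are higher and blue points lower at an adjusted p under 0.05 in limma, grey points did not pass, and black bars are list medians. Twist2 at 1.26 lies to the right of every other listed gene, and Id4 at -0.76 is the one point to the left of Snai2 at -0.63.

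**Figure D4:**
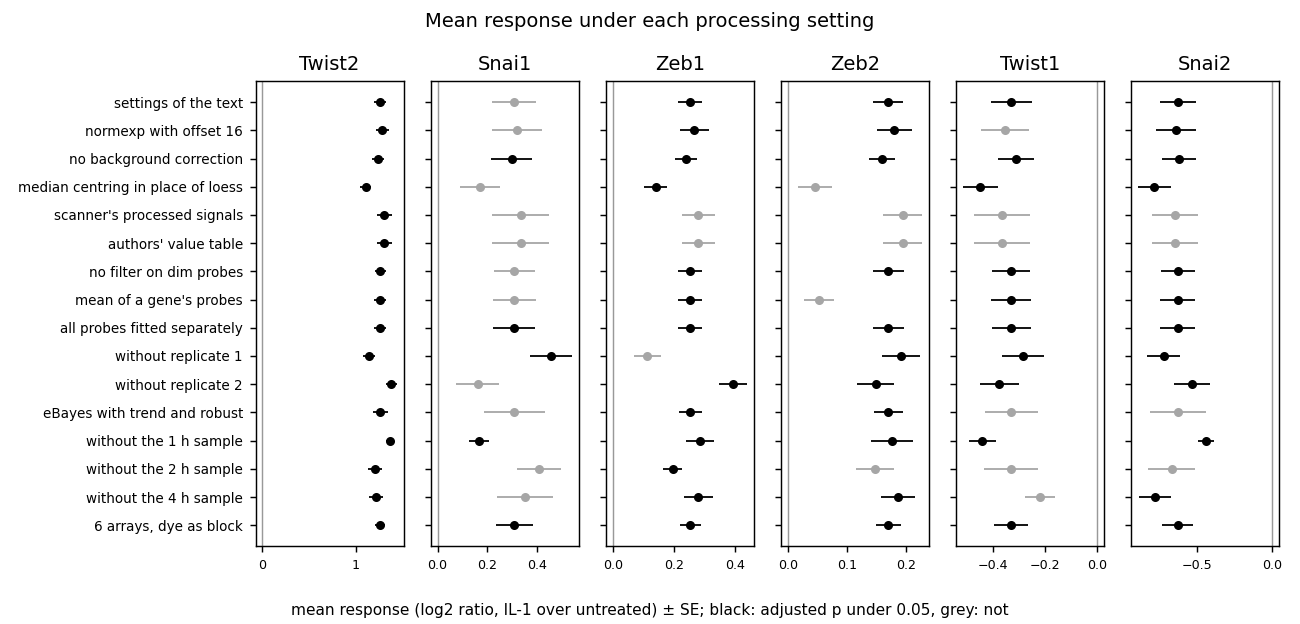
Mean response of each of the 6 genes (horizontal axes, log2 ratio of IL-1 over untreated, each gene on its own scale) under each processing choice (rows), with bars of 1 SE. Black points passed an adjusted p of 0.05 in limma and grey points did not. Twist2 stays between 1.11 and 1.38 and passes under every choice, while the other 5 genes lose or gain the call under some.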

How the data were processed

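Total RNA of cultured dermal fibroblasts was labelled and hybridised to two-colour Agilent arrays, per the labels' protocols. Spots were read by Feature Extraction 7.5.1, per the file headers, and the intensity of each spot and of its local surround was deposited before any correction. Replicate 1 has the IL-1 RNA in Cy5 and replicate 2 in Cy3, so the replicate number marks dye orientation. Each array had 43790 spots, of which 2256 were controls, and the number of arrays limits the precision.

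The deposited value table holds log2 ratios. Each column was equal, within 0.001 for 100% of spots, to the processed-signal ratio (IL-1 over untreated) of its dye-swap partner, and for 0.203% to 0.235% of spots to that of its own array. Column medians in replicate 1 were -0.026, -0.0309 and -0.0325 at 1, 2 and 4 h, and those in replicate 2 were 0.0261, 0.0311 and 0.0283. No centring was added to them. Averages over both orientations do not depend on an exchange of columns, but if the scanner files were exchanged every sign given here would turn. Signs here follow the labelled dyes; in the exchanged case Cxcl1 and Nfkbia, with labelled ratios up to 6.21 and 3.02, would read as lowered by IL-1.

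Intensities were corrected with normexp (offset 50) and normalized by loess within arrays in limma 3.58.1 (R 4.3.3), with controls at weight 0. Outlier spots were dropped and spots of a probe averaged. Probes were kept if some condition had them well above background on each of its arrays, and if no array lacked a value. The brightest probe stood for a gene. RefSeq accessions named 22072 probes through the GRCm38.p6 gene table, and the files' names the rest.

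With lmFit and eBayes, the mean of the 3 time points was tested against 0, leaving 2 residual degrees of freedom, and the slope on log2 time was tested, leaving 1. Tests were two-sided, with Benjamini-Hochberg adjustment over 22211 genes. At single times, size was a 1.5-fold or 2-fold difference in both orientations, with no test. Both limma tests were also run on simulated data with independent normal errors and variances drawn from the fitted model. Such data hold no dye bias and no shared untreated RNA, so they cannot show how the tests behave with either.

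The members and lists were chosen with earlier results of these data known. From each list the text names up to 4 genes with the largest absolute mean response past an adjusted p of 0.05, and any gene past 1.5-fold; 1 gene that this rule names is not reported here. For each member past 1.5-fold it names the 5 genes nearest by root mean square difference. Snai3, Scx and Cdh1, shown without values, and Krt18 and Ovol1, the ends of a range, were named outside this rule, as were Cdh2, Cxcl1 and Nfkbia, Cdh2 after its value was seen. S100a4, Acta2, Tagln and Vim were named outside it for their saturation. The last 2 promoter motifs, CCAAT and TATAAA, were added after the sequences were seen. Alternatives changed the background correction, normalization, filter, probe rule, variance model, arrays and times used.

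Across genes, arrays with the same number deviated together from the averages of their times (correlations of 0.781 to 0.855), and the ratios of both orientations of a time correlated at 0.296 to 0.352. Each array was its own slide, so no batch could be tested.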

Additional observations from a re-analysis of the deposited data

Results flagged for a closer look

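The response of 2 members differed between time points by the test of the slope itself. Snai2 had a slope of 0.34 log2 units per doubling of time (limma, adjusted p = 0.0373), with averages of -1.01, -0.55 and -0.33 at 1, 2 and 4 h. Twist1 had a slope of -0.22 (limma, adjusted p = 0.0441), with averages of -0.11, -0.33 and -0.55. Both slopes have 1 residual degree of freedom. Adjusted p over the other processing choices reached from 1.47e-11 to 0.514 for Snai2 and from 0.00139 to 0.514 for Twist1.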

How the results depend on the processing

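Values in brackets are adjusted p from limma. The scanner's processed signals and the authors' value table hold the same ratios, so they are counted as separate alternatives without being separate checks. The mean response of Twist2 kept its direction and its call under all 15 alternatives, and no alternative turned the direction of any member's mean response. With a normexp offset of 16, Twist1 was at -0.35 (0.0676), the slopes of Twist1 and Snai2 were -0.24 and 0.35 (both 0.402), 0 genes rose and 0 fell in slope (2079 at an unadjusted p under 0.05, 2309 in the settings of the text), and 12, 23 and 22 genes were 1.5-fold lower at 1, 2 and 4 h. Without background correction Snai1 was at 0.30 (0.0497), and 217 slopes rose and 240 fell. With median centring 1126 genes rose and 5754 fell in the mean response, 237 rose and 177 fell in slope, 37, 32 and 32 genes were 1.5-fold higher and 2, 2 and 0 lower, Zeb2 was at 0.046 (0.293), and the slopes of Twist2, Snai1 and Zeb2 were 0.16 (0.0279), -0.17 (0.0222) and 0.0073. The scanner's processed signals and the authors' value table both gave 748 genes higher and 587 lower in the mean response, 0 slopes either way (2023 at an unadjusted p under 0.05), 161, 179 and 152 genes 1.5-fold higher and 41, 57 and 63 lower. Under both, Twist1 was at -0.36 (0.12), Snai2 at -0.65 (0.0847), Zeb1 at 0.28 (0.0661) and Zeb2 at 0.19 (0.0571), and the slopes of Twist1 and Snai2 were -0.25 and 0.35 (both 0.514). With the mean of a gene's probes Zeb2 was at 0.053 (0.215), its slope was 0.026, and 9 and 6 genes were 1.5-fold lower at 2 and 4 h. With all probes fitted Snai1 was at 0.31 (0.0465), and 60 slopes rose and 74 fell. With trend and robust variances Twist1 was at -0.33 (0.129) and Snai2 at -0.63 (0.166), and 231 slopes rose and 240 fell. Without the 1 h sample Snai1 was at 0.17 (0.0289). Without the 2 h sample 473 genes rose and 343 fell, and Twist1, Snai2 and Zeb2 were at -0.33 (0.147), -0.67 (0.0849) and 0.15 (0.0784). Without the 4 h sample Twist1 was at -0.22 (0.059). With dye orientation as a replicate block on the 6 arrays, Snai1 was at 0.31 (0.0141), and 165 slopes rose and 170 fell. No other member's call changed. That fit counts the dye-swapped arrays of a time point as separate samples. Leaving out either orientation (without replicate 1 or 2) gave 3282 to 4744 genes higher and 3551 to 4281 lower in the mean response, 9 to 13 slopes rising and 15 to 17 falling, 131 to 149, 140 to 168 and 123 to 133 genes 1.5-fold higher at 1, 2 and 4 h, and 20 to 51, 38 to 49 and 36 to 55 lower. Across these, Snai1 ran from 0.16 to 0.45 (0.0103 without replicate 1) and Zeb1 from 0.11 (0.088, without replicate 1) to 0.39, and the slopes ran from -0.23 to -0.21 for Twist1 (0.169 and 0.17), from 0.32 to 0.36 for Snai2 (0.093 and 0.0778), from -0.025 to 0.035 for Zeb1 and from -0.025 to 0.0048 for Zeb2. The number marks dye orientation, not a shared sample. Apart from the reasons built into an alternative, such as fewer samples, the cause of these changes was not tested.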
